A study of Danio rerio with 6 samples.

Results

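The abundant miRNA loci of the adult zebrafish telencephalon were taken as the loci whose level averaged at least 500 RPM over the control libraries, after 16 listed loci had been set aside by their identifiers. RPM stands for reads of a locus per 1000000 reads at annotated miRNA loci. The members were thus chosen by their measured level in the controls. Among the 434 annotated loci, 67 reached 500 RPM, and 11 of these were among the loci set aside, which left 56 members. MIR222, mir92b and mir9-4 are among the loci set aside, while other loci of their families, MIR221, MIR92A1 and mir9-7, are members. Small RNA libraries came from 3 injured hemispheres (injured 1 to 3) and from 3 healthy, untreated hemispheres (control 1 to 3). Per the study's methods, a syringe needle was pushed into 1 hemisphere of an adult fish, RNA was taken at 5 days post lesion, and each hemisphere was processed on its own. For its polyadenylated RNA the study used the uninjured hemisphere opposite the lesion as control, and it prepared the RNA for the small RNA libraries in the same way, so injured and control libraries may share fish. The labels give neither strain, age nor sex and do not say which libraries came from the same fish, so p-values measure the spread between these libraries only.

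miRNAs are short RNAs cut from hairpin precursors. A loaded miRNA guides an Argonaute protein to messenger RNAs, mostly through its seed near the 5′ end, and lowers their stability and translation, so related miRNAs with the same seed share many targets. In the vertebrate brain a small number of miRNAs supplies most molecules. The zebrafish telencephalon keeps radial glia as stem cells through adult life and replaces lost neurons after a lesion.

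The injured libraries held 11473850 to 14545864 reads at miRNA loci and the control libraries 2475462 to 4008607, so depth cannot be told apart from injury. Every member was deeply counted, with at least 1154 reads in each library, and all 56 passed the filter on low values of the test. Reads of miRNAs known from neural tissue checked the labelled tissue. In injured libraries the 36 loci of a neuron list, 33 of them with reads, summed to 285691 ± 23907 RPM. In control libraries they summed to 294760 ± 4717 RPM (SD, n = 3 each), and mir153b, MIR153-2 and mir218a-1 were listed at 0. Most of the sum came from dre-mir-132-2, mir9-4 and mir153c. Per the study, miR-9 is found in neural stem cells of the telencephalon, so the sum does not stand for neurons alone. The miR-124 loci of the list were near the floor, the highest being mir124-1. Its RPM, divided by the library scaling factors of the test, was 17.3 to 20.7 in injured and 15.9 to 22.4 in control libraries. On this scale the miR-137 and miR-129 loci reached at most 24.4. The check thus rested on few loci, and why miR-124 was low was not tested. Loci of muscle miRNAs summed to 5.29 RPM in injured and 4.43 RPM in control libraries. The 3 loci of a sensory epithelium list, none of them members, summed to 11526, 1406 and 31827 RPM in the injured and to 1119 to 1895 RPM in the control libraries, and their part in the results was not tested. Counts were made per hairpin locus, and reads that fit several places were removed upstream, which can lower the count of loci that share a mature sequence.

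The basal ranking of the healthy telencephalon was steep at the top and flat below. The members took 49.3% ± 0.287 (SD, n = 3) of all miRNA-locus reads in the control libraries, and the 10 highest of them took 33.1% ± 0.220. In the control mean, 13 members lay at or above 10000 RPM, 32 between 1000 and 10000 RPM, and 11 below 1000 RPM, and the highest member had 139 times the level of the lowest. These control levels chose the members, so the ranking is given as a description without a test. Inserts had been kept within a narrow window at the length of mature miRNAs, so RPM was compared between loci without a length term. Whether this window favoured some loci was not tested, nor was the efficiency of ligation and amplification for each sequence.

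The highest member was MIR101-1 (ENSDARG00000082131), a locus of miR-101, which represses the histone methyltransferase EZH2 in human cells. MIR101-1 had 71529, 66704 and 72578 RPM in the control libraries and stood at rank 5 among all loci. The next member, mir458 (ENSDARG00000082809), had 67414, 67366 and 67225 RPM. The order of these loci was not settled by the controls, since mir458 lay above MIR101-1 in control 2. Below them, mir153c (ENSDARG00000081163) of the brain-enriched miR-153 family had 42963, 49790 and 48648 RPM, with no control library reaching the range of mir458.

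The ranks that follow were held by MIR92A1 and by mir30d. MIR92A1 (ENSDARG00000104805), a miR-92a locus of a family known from the proliferation-linked miR-17-92 cluster of mammals, averaged 30284 ± 606 RPM in the controls. The miR-30 locus mir30d (ENSDARG00000081529) averaged 26698 ± 542 RPM. The let-7 loci MIRLET7I (ENSDARG00000082738) and MIRLET7F1 (ENSDARG00000082942) followed with 23738 ± 1256 and 20906 ± 476 RPM. let-7 was found as a timer of development in the nematode and is repressed by Lin28 in stem cells. At rank 8, mir9-7 (ENSDARG00000081313) of miR-9, which acts on Hairy-related genes in zebrafish neural progenitors, averaged 18166 ± 257 RPM. At rank 9, mir125c (ENSDARG00000080508), a relative of the nematode timer lin-4, averaged 14894 ± 554 RPM. At rank 10, mir130a-2 (ENSDARG00000082938) averaged 11456 ± 317 RPM (SD, n = 3 controls for each mean). From mir458 down to rank 11, dre-mir-107, the control ranges of neighbours in rank did not overlap.

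**Figure D1:**
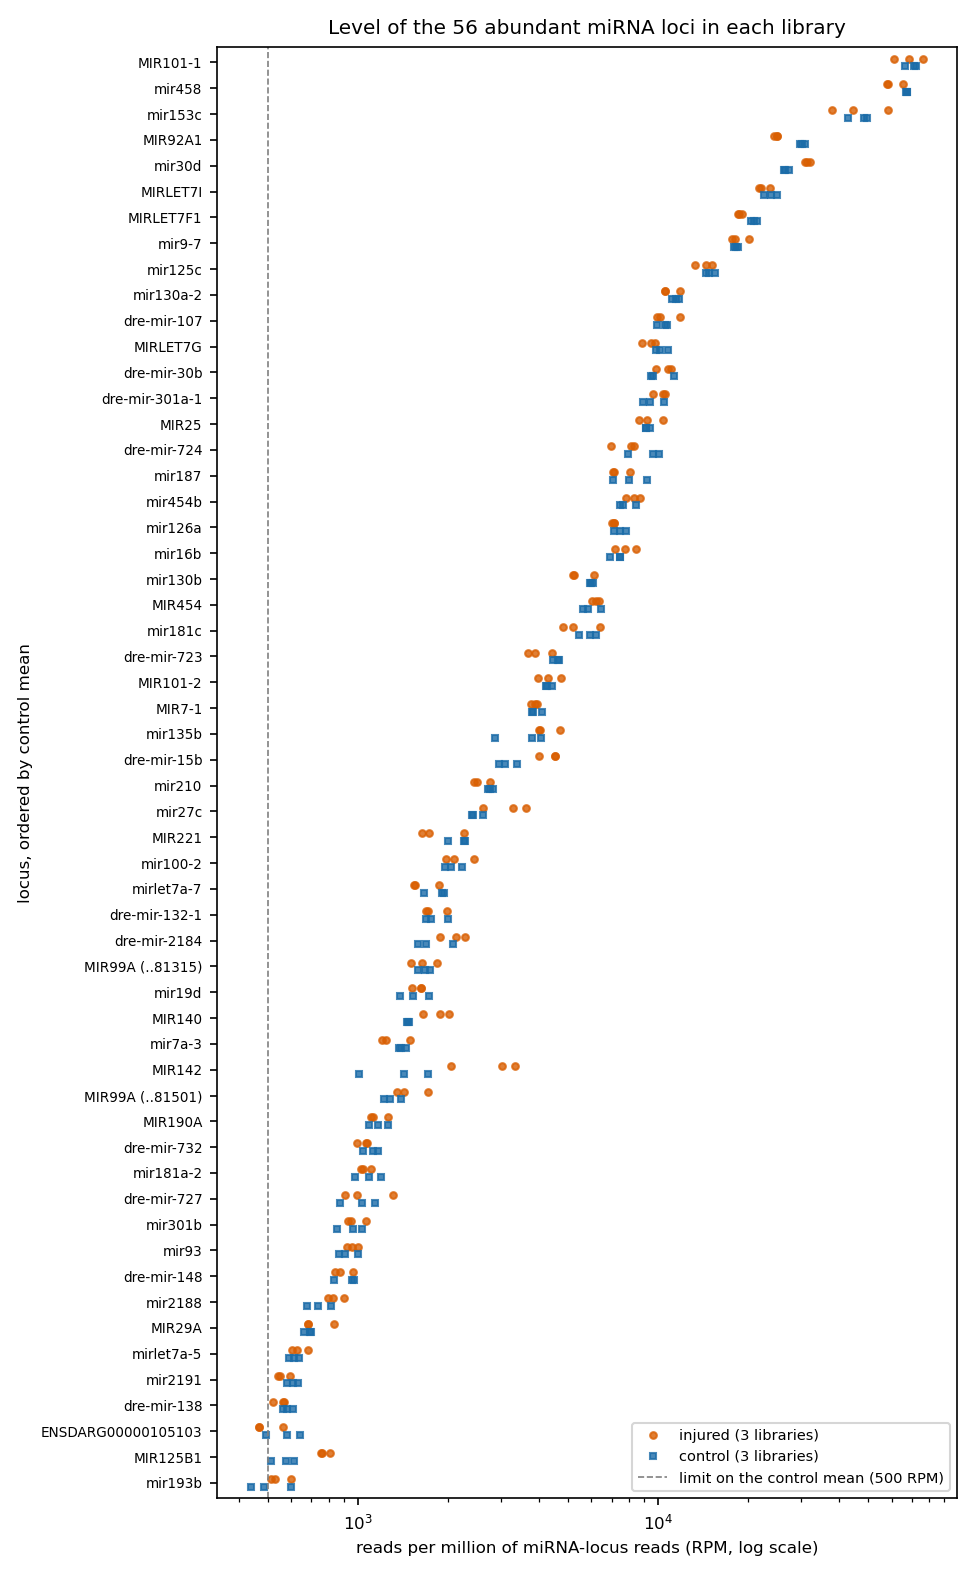
Level of each of the 56 members in the 3 injured (circles) and the 3 control libraries (squares), on a log axis in RPM, ordered from top to bottom by control mean. The members run from MIR101-1 at 70270.3 RPM to mir193b at 507 RPM in the control mean, and for most of them circles and squares lie on each other, while MIR142 stands out with its circles to the right.

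Below rank 10 the order was less sharp. Of the 55 pairs of neighbours in rank, 35 had overlapping control ranges and 20 did not. From rank 11, dre-mir-107, to rank 20, mir16b, the control range of each locus overlapped that of the next. The ends of the stretch lay apart (dre-mir-107 at 10388 ± 397 RPM, mir16b at 7282 ± 339 RPM). Loci were measured in the same libraries, so overlapping ranges do not show that neighbours were equal in level. Neighbours also overlapped from rank 39, mir7a-3, to rank 48, dre-mir-148, and the ends again lay apart. The spread between replicates was small for most members, with a median coefficient of variation (CV) of 7.29% in the injured and 6.23% in the control libraries. The CV was under 10% for 40 members in the injured and 47 members in the control libraries.

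The steadiest members across the controls were mir458, with a control CV of 0.145%, MIR140 (ENSDARG00000080453) with 0.619% and mir130b (ENSDARG00000080347) with 1.14%. Across the injured libraries the same loci had CVs of 7.16%, 10.1% and 9.05%. These control CVs are the lowest among the members, each from 3 libraries, and they depend on the scaling. Divided by the library scaling factors of the test, the RPM of mir458 was 68753.5, 66735 and 69184 in the controls. The most variable members were MIR142 (ENSDARG00000082167) with a control CV of 25.6%, mir135b (ENSDARG00000082598) with 17.9% and mir193b (ENSDARG00000104984) with 16.1%. For mir135b the spread came from control 3, at 2858 RPM against 3811 RPM in control 1 and 4076 RPM in control 2.

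The limit of 500 RPM cut through loci that hardly differed. Just inside it lay ENSDARG00000105103, without a symbol, at 572 ± 73.6 RPM in the controls, MIR125B1 (ENSDARG00000081350) at 567 ± 50.5 RPM and mir193b at 507 ± 81.5 RPM. Just outside it lay mir7a-1 (ENSDARG00000105133) at 498 ± 59.2 RPM, MIR126 (ENSDARG00000098981) at 477 ± 280 RPM and MIR15A (ENSDARG00000080168) at 473 ± 18.9 RPM. MIR126 missed the limit through control 1, which had 154 RPM against 636 RPM in control 2 and 641 RPM in control 3.

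Known families made up most of the reads of the members, and 23 members were on none of the family lists. The largest share came from 10 loci of the let-7, miR-99, miR-100 and miR-125 group, families that lie together in clusters in many animals. They took 7.78% of the control reads, from MIRLET7I at the top to MIR125B1 at the bottom. The miR-101 loci MIR101-1 and MIR101-2 (ENSDARG00000081347) took 7.46%, of which MIR101-2 held 4305 ± 99.7 RPM. The loci MIR92A1, MIR25, mir19d and mir93 of the miR-17-92 cluster and its paralogs took 4.20%. The miR-130, miR-301 and miR-454 family, whose members share their seed, was spread over 6 loci that together took 4.18%. The miR-30 loci mir30d and dre-mir-30b took 3.68%.

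Members lying near each other in the genome could differ widely in level. Neighbours were taken from RefSeq genes of another assembly (GRCz12tu), within 10000 bases. MIR25 had 9.84 ± 1.145 times the reads of its neighbour mir93 in the injured and 10.02 ± 0.915 times in the control libraries. The ratio of mir454b to its neighbour mir301b was 8.48 ± 0.413 in the injured and 8.33 ± 0.769 in the control libraries. MIR221 (ENSDARG00000091272), whose family represses the cell-cycle inhibitor p27Kip1 in human cells, had 1.17% of the reads of its neighbour MIR222 in the injured and 1.29% in the control libraries. Some neighbours of members were rare in the control mean, such as dre-mir-212 with 9.99 RPM beside dre-mir-132-1 with 1807 RPM, and mir23a-2 with 1.31 RPM beside mir27c with 2477 RPM. Reads that fit several places had been removed, which may lower some of these counts and was not tested. For 5 of 6 pairs of neighbouring members the ratio overlapped between the groups. The exception was the ratio of mir30d to dre-mir-30b, which was 2.80, 2.901 and 3.26 in the injured against 2.75, 2.42 and 2.77 in the control libraries. The lowest injured ratio lay just above the highest control ratio.

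Of the 36 loci on the neuron list 6 were members, as were 1 of 2 on the endothelial and 1 of 4 on the leucocyte list. The lists differ in size, so these counts do not weigh cell types against each other. The neuron list includes mir9-7 of miR-9, which is not confined to neurons. The 6 members on the neuron list summed to 73202 ± 11649 RPM in the injured and 73011 ± 3577 RPM in the control libraries. Most of this came from mir153c, which had 38143, 58522 and 44595 RPM in the injured libraries, so that injured 2 lay above and injured 1 below all controls. Of the others, MIR7-1 (ENSDARG00000081109) had 3867 ± 100.5 RPM in the injured and 3920 ± 164 RPM in the control libraries, and mir7a-3 (ENSDARG00000081629) had 1314 ± 156 and 1402 ± 36.8 RPM. miR-7 is known from neurons and neuroendocrine cells. The locus dre-mir-132-1 (ENSDARG00000081190), whose miRNA is induced by activity in mammalian neurons, had 1788.5 ± 160.4 RPM in the injured and 1807 ± 161 RPM in the control libraries. dre-mir-138 (ENSDARG00000081331), which limits the size of dendritic spines in rat neurons, had 550.1 ± 23.8 RPM in the injured and 582 ± 22.6 RPM in the control libraries. The endothelial mir126a (ENSDARG00000081476) had 7097 ± 66.6 RPM in the injured and 7479 ± 338.4 RPM in the control libraries, and MIR142 was the only member on the leucocyte list. No member was on the oligodendrocyte, mural, erythrocyte, muscle or sensory lists. For the erythrocyte and sensory lists this followed from the rule, which set aside the abundant MIR451A and dre-mir-182 by identifier. The erythrocyte list summed to 2525 ± 215 RPM in the injured and 2195 ± 271 RPM in the control libraries.

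The next question was how far the basal ranking held after injury. The share of the small RNA pool taken by all members together differed little. They took 49.4%, 48.2% and 47.2% of the miRNA-locus reads in the injured libraries, against 49.3%, 49.6% and 49.1% in the controls. The injured mean differed by −1.09 percentage points, and injured 1 lay within the control range. A two-sided exact permutation test gave p = 0.3, where 3 against 3 libraries cannot give less than 0.1. The control libraries of this comparison also chose the members. The difference is therefore a description, and the p-value bears no statement on stability.

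The order of the members was nearly the same in both groups. The 5, the 10 and the 20 highest members of the injured mean were those of the control mean. Spearman's rho between the group means was 0.991 over the 56 loci, and Pearson's r of log2 RPM was 0.994, values given as a description because loci of a library share its total and are not replicates. Between an injured and a control library rho lay between 0.981 and 0.993, against 0.992 to 0.996 between injured libraries and 0.990 to 0.993 between control libraries. On average a member stood 1.36 to 2.21 places apart between an injured and a control library, 1.07 to 1.68 places apart between injured libraries and 1.25 to 1.46 places apart between control libraries. Some library pairs across the groups were therefore no further apart in order than replicates of 1 group.

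Between the group means, 18 members held the same rank, 18 moved by 1 place and 16 by 2 or 3 places. The other 4 moved by 4 or more places. MIR142 went to rank 30 in the injured mean, against rank 40 in the control mean, the widest shift of all. MIR125B1 stood at rank 50 in the injured and 55 in the control mean, and dre-mir-15b (ENSDARG00000081182) at rank 24 in the injured and 28 in the control mean. Only mirlet7a-7 (ENSDARG00000083270) moved that far down, to rank 38 in the injured mean against rank 33 in the control mean. Next came shifts of 3 places, among them that of MIRLET7G (ENSDARG00000080515), at rank 15 in the injured and rank 12 in the control mean, in the stretch where the control ranges of neighbours overlapped. The RPM of MIRLET7G itself did not overlap between the groups, with 9752, 8853 and 9451 in the injured against 10135, 9834 and 10763 in the control libraries. Its log2 fold change was −0.17 (edgeR adjusted p = 0.235).

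Ranks in the separate libraries did not overlap between the groups for 6 of the 56 members. With 3 against 3 libraries, full separation of values without ties has a probability of 0.1 in the absence of any difference. Ranks often tie between libraries, as for MIRLET7I at rank 6 in each of them, which lowers that share. The share for tied ranks was not computed, so the count does not by itself show a change in order. mir30d was at rank 4 in each injured and rank 5 in each control library, and MIR92A1 was at rank 5 in each injured and rank 4 in each control library, so that these loci changed places. dre-mir-15b was at ranks 25, 24 and 26 in the injured and at 28, 28 and 27 in the control libraries. MIR142 was at ranks 33, 30 and 30 in the injured and at 45, 35 and 38 in the control libraries. Ranks were lower down the list in the injured libraries for dre-mir-723 (ENSDARG00000100648), at 26, 27 and 28 against 24 in each control, and for mirlet7a-7, at 38, 36 and 38 against 34, 33 and 35. A rank depends on the loci around it, and the RPM of mirlet7a-7 itself overlapped between the groups.

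**Figure D2:**
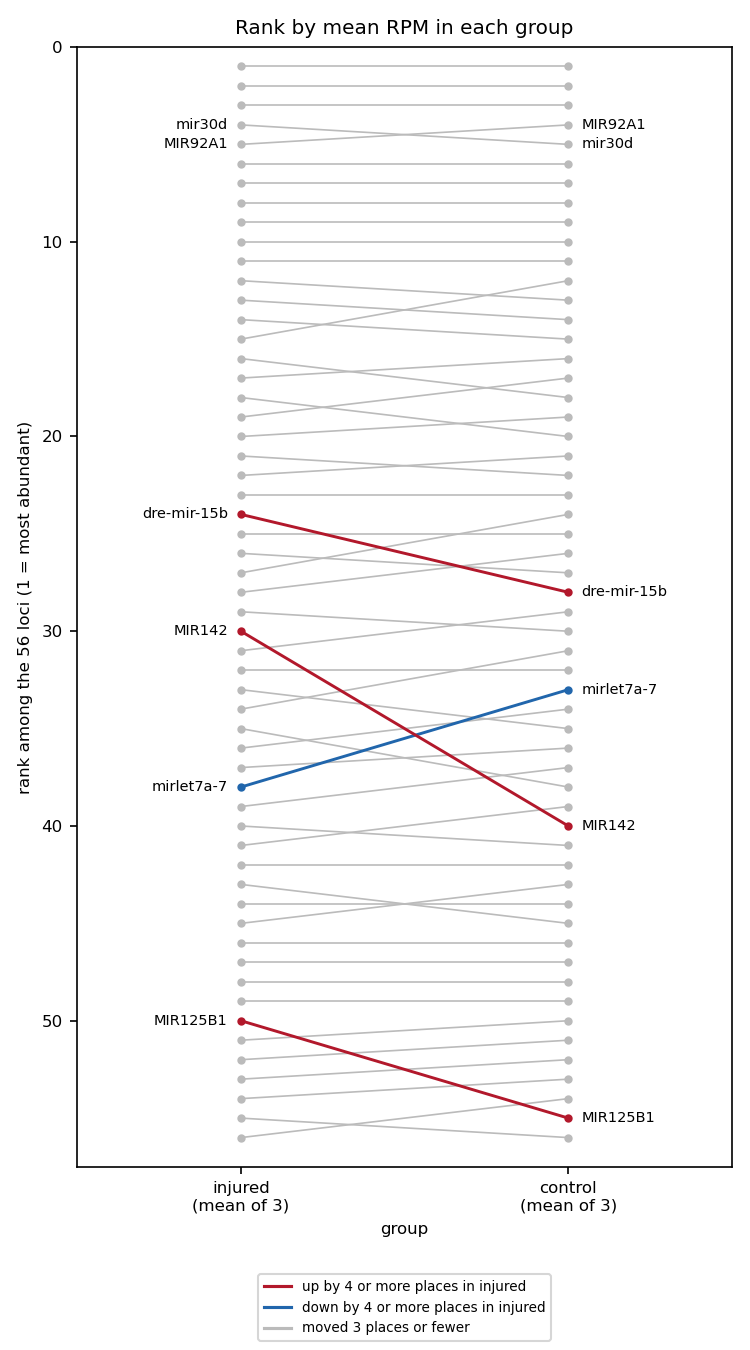
Rank of each member by mean RPM among the 56 loci, with the mean of 3 injured libraries on the left and of 3 control libraries on the right (rank 1 is the most abundant). Lines are nearly level throughout, and coloured lines mark the 4 loci that moved by 4 or more places, with MIR142 at rank 30 in injured and 40 in control.

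Changes in level upon injury were small for nearly all members. Over the members the median log2 fold change (injured over control, fitted by edgeR with TMM scaling, which sets library sizes by a trimmed mean of ratios) was −0.04, beside 0.03 over the 188 loci tested. The median absolute log2 fold change was 0.12 over the members and 0.15 over all tested loci. A fitted change under 1.2-fold was found for 49 of 56 members, against 70.2% of all tested loci, and a change under 1.5-fold for 55 of 56, against 88.8%. The fitted change was above 0 for 22 of 56 members (39.3%), against 53.7% of all tested loci. The 95% interval of the fold change lay within 2-fold, up or down, for 55 of 56 members, against 82.4% of all tested loci, and within 1.5-fold for 52 of 56, against 59.6%. MIR142 was the member whose interval passed 2-fold. Abundant loci were measured more tightly, with a median standard error (SE) of 0.09 against 0.12 for all tested loci on the log2 scale, which bears on these counts. The control libraries that chose the members are also a side of each fold change, so the direction of small changes is not independent of that choice. The loci set aside by identifier included abundant loci with larger changes. These shares, and those of calls below, therefore hold for the members alone. mir146a had a log2 fold change of 2.28 (edgeR adjusted p = 2.05e-05) and dre-mir-462 one of 0.88 (edgeR adjusted p = 0.0302). Others set aside changed little, such as mir92b with −0.01 and mir9-4 with −0.0027.

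The quasi-likelihood test of edgeR was adjusted by the Benjamini-Hochberg method over all 188 loci, with a threshold of 0.05. By this test 5 of 56 members (8.93%) were called changed, against 12.8% of all tested loci. Of these, 4 were called higher, dre-mir-15b, MIR125B1, MIR142 and mir30d, against 10.6% of all tested loci, and 1 was called lower, MIR92A1, against 2.13%. The split into 4 higher and 1 lower depended on the scaling. It was 2 and 3 with median-of-ratios (RLE) factors, 1 and 2 with upper-quartile factors, and 4 and 3 with TMM factors taken over the tested loci. DESeq2 called 3 members higher and 5 lower. At an unadjusted p below 0.05 there were 11 members, against 21.8% of all tested loci. On RPM the injured and control libraries did not overlap for 10 members, 5 higher and 5 lower, against 22.9% of all tested loci, with 17% higher and 5.85% lower. On counts scaled by TMM to 1000000 reads there were 15 such members, 5 higher and 10 lower, against 26.1% of all tested loci, with 15.4% higher and 10.6% lower.

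**Figure D3:**
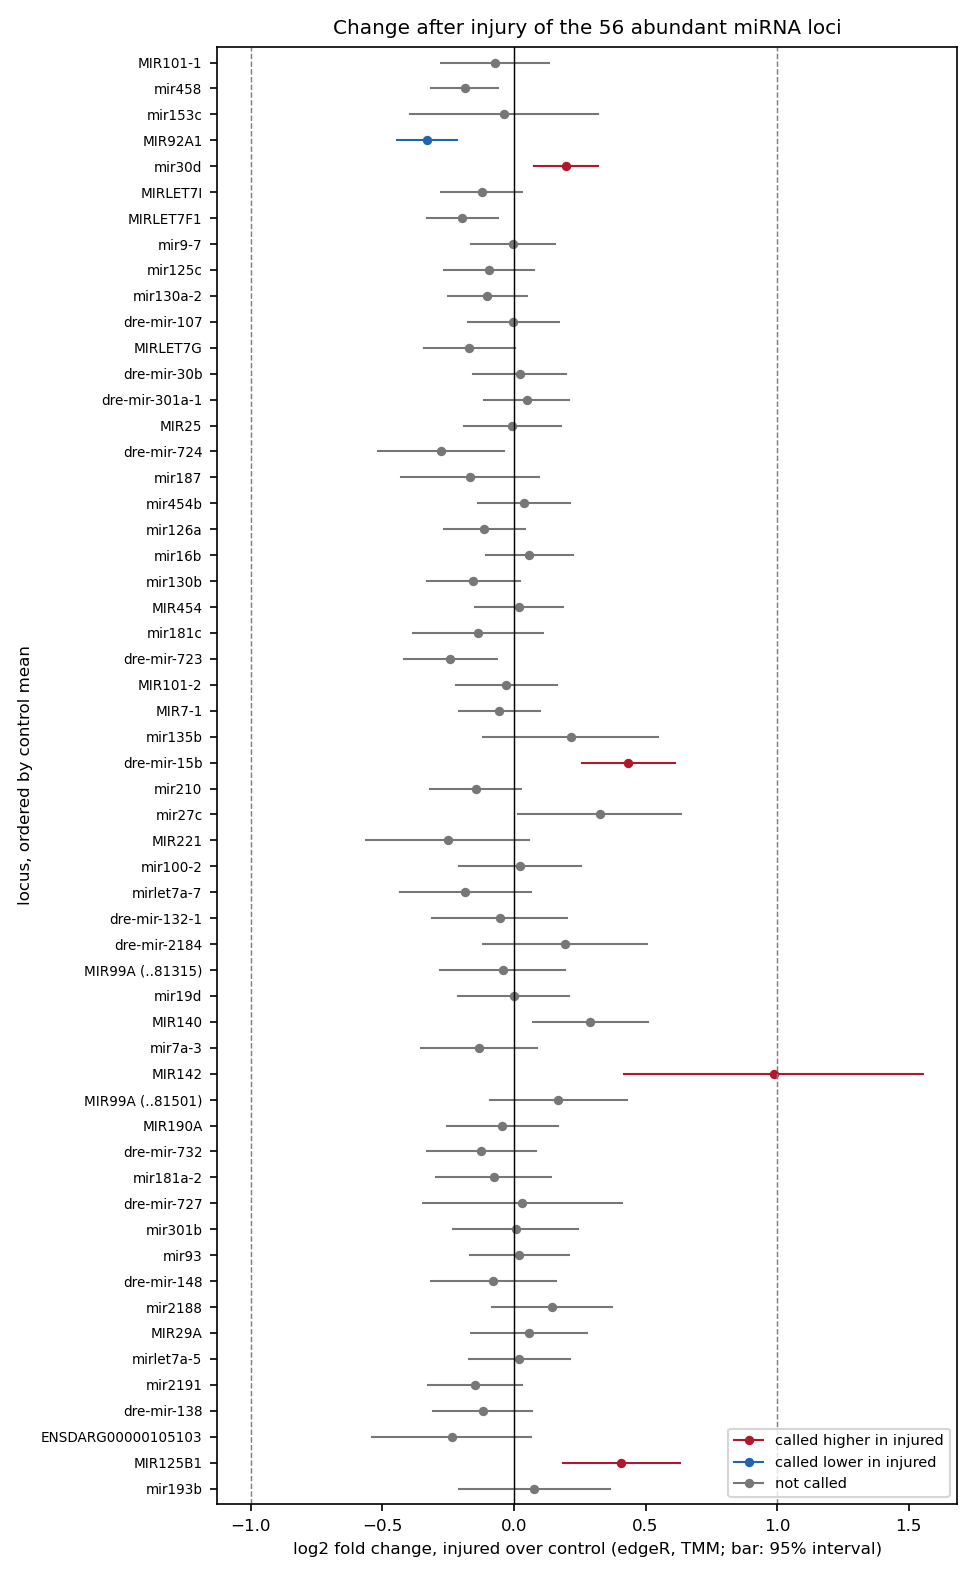
Log2 fold change (injured over control) of each member by edgeR with TMM scaling, ordered by control mean; bars are 95% intervals, the solid line marks no change and dashed lines mark 2-fold. All points except that of MIR142 lie within 0.5 of the solid line, and 55 of the 56 intervals stay between the dashed lines.

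MIR92A1 fell to 24878, 24404 and 24906 RPM in the injured libraries, against 30174, 30938 and 29740 RPM in the controls. The injured values lay close together and all below the controls. The log2 fold change was −0.33 (SE 0.05; adjusted p = 0.00714 by edgeR), and the locus was called in all 17 fits with another scaling, filter, tool or adjustment, a replicate block or 1 library left out. A less abundant locus with the same symbol, ENSDARG00000082154, had 117 RPM in the injured and 167 RPM in the control mean, with a log2 fold change of −0.56 (edgeR adjusted p = 0.00816). The related mir92b, set aside by its identifier, had a log2 fold change of −0.01 (edgeR adjusted p = 0.950).

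In mir30d the level rose to 30908, 31360 and 31984 RPM in the injured libraries, against 26492, 27314 and 26290 RPM in the controls. The groups did not overlap, although the log2 fold change was only 0.20 (SE 0.05; adjusted p = 0.0466 by edgeR). The call was lost without any of control 1, control 2, control 3, injured 2 or injured 3, and it was made in 4 of the 17 other fits. Its neighbour dre-mir-30b (ENSDARG00000083528) had 10553 ± 647 RPM in the injured and 10135 ± 987 RPM in the control libraries (SD, n = 3 each), with a log2 fold change of 0.02 (edgeR adjusted p = 0.932).

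The level of dre-mir-15b rose to 4537, 4537 and 4004 RPM in the injured libraries, against 3094, 3377 and 2957 RPM in the controls. miR-15 and miR-16 repress BCL2 and cell-cycle genes in mammalian cells. All injured libraries lay above the controls, with a log2 fold change of 0.43 (SE 0.08; adjusted p = 0.0118 by edgeR). The call was lost with upper-quartile factors, with Bonferroni adjustment, without control 1 and without control 3, and it was made in 13 of the 17 other fits. Other loci of the family had the following values, and differences between them were not tested. mir16b (ENSDARG00000081252), also a member, had a log2 fold change of 0.06 (edgeR adjusted p = 0.746). Among loci below the limit, MIR15B (ENSDARG00000081366) rose to 301.2 RPM in the injured mean, against 192 RPM in the control mean, a log2 fold change of 0.61 (edgeR adjusted p = 0.0134). For MIR16-2 (ENSDARG00000083213) the log2 fold change was 0.53 (edgeR adjusted p = 0.115), and for MIR15A it was −0.22 (edgeR adjusted p = 0.116).

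MIR142 rose to 2037, 3326 and 3028 RPM in the injured libraries, against 1007, 1710 and 1428 RPM in the controls. miR-142 is made in blood lineages and is used as a marker of leucocytes, which in brain include microglia. The lowest injured library lay above the highest control, but replicates of a group differed widely. The log2 fold change was 0.99 (SE 0.24; adjusted p = 0.0382 by edgeR), with a 95% interval from 0.42 to 1.56. More cells that make it and more RNA per cell cannot be told apart in these bulk samples. The call was lost without control 1, control 2, control 3, injured 2 or injured 3, with limma-voom, with robust empirical Bayes and with Bonferroni adjustment, and the log2 fold change lay between 0.81 and 1.18 over all alternatives. A further locus with the same symbol, ENSDARG00000082467, had 747 RPM in the injured and 387 RPM in the control mean, with a log2 fold change of 0.91 (edgeR adjusted p = 0.0328). The leucocyte list summed to 2606, 4222 and 3804 RPM in the injured and 1306, 2156 and 1844 RPM in the control libraries, all of it from the miR-142 loci, with MIR223 and mir150 listed at 0.

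MIR125B1 rose to 754, 805 and 757 RPM in the injured libraries, against 512, 576 and 612 RPM in the controls, without overlap. The log2 fold change was 0.41 (SE 0.09; adjusted p = 0.0328 by edgeR). The call was lost with RLE or upper-quartile factors, with Bonferroni adjustment and without control 1, control 2, control 3, injured 2 or injured 3. Another locus of this symbol, ENSDARG00000080032, had 210.2 RPM in the injured and 148.2 RPM in the control mean, with a log2 fold change of 0.47 (edgeR adjusted p = 0.0466). By contrast, mir125b-3 (ENSDARG00000083557) had 397.4 RPM in the injured and 399.8 RPM in the control mean. Its log2 fold change was −0.05 (edgeR adjusted p = 0.855). The more abundant mir125c of the same family had 14308 ± 969 RPM in the injured and 14894 ± 554 RPM in the control libraries, with a log2 fold change of −0.10 (edgeR adjusted p = 0.499). The difference between these loci was not tested.

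**Figure D4:**
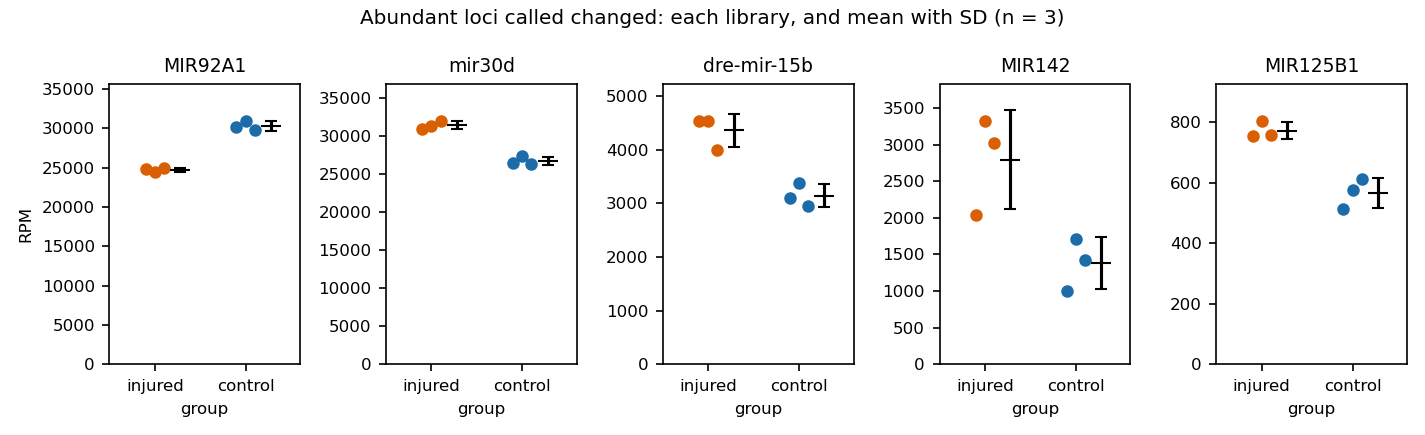
Level in RPM of the 5 members called changed, with injured libraries on the left and control libraries on the right of each panel; points are libraries, and the bars beside them give the mean and SD (n = 3). In each panel the groups do not overlap, and MIR142 has the widest spread within a group.

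Among the 51 members that were not called, log2 fold changes ran from −0.28 to 0.33. The largest was that of mir27c (ENSDARG00000083181), of a family clustered with miR-23 and miR-24, with 2604, 3634 and 3297 RPM in the injured against 2401, 2617 and 2413 RPM in the control libraries. Injured 1 lay within the control range, and the log2 fold change was 0.33 (SE 0.13; adjusted p = 0.196 by edgeR). Other miR-27 loci, below the limit, were called higher. The log2 fold change was 0.47 for dre-mir-27e (edgeR adjusted p = 0.0203), 0.54 for mir27a and 0.48 for MIR27B (edgeR adjusted p = 0.0376 for each). Differences between these loci were not tested. MIR140, of a miRNA best known from cartilage, had 2012, 1643 and 1874 RPM in the injured against 1478, 1465 and 1460 RPM in the control libraries. Its groups did not overlap, and the log2 fold change was 0.29 (SE 0.09; adjusted p = 0.0951 by edgeR).

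In the other direction, dre-mir-724 (ENSDARG00000080608) had 8295, 8155 and 6947 RPM in the injured against 10059, 9639 and 7916 RPM in the control libraries. The ranges overlapped through control 3, with a log2 fold change of −0.28 (SE 0.10; adjusted p = 0.153 by edgeR). MIR221 had 1640.4, 2248 and 1729 RPM in the injured against 2257, 2265 and 2002 RPM in the control libraries. Injured 2 was level with the controls, and the log2 fold change was −0.25 (SE 0.13; adjusted p = 0.346 by edgeR). dre-mir-723 had 4417, 3882 and 3688 RPM in the injured against 4658, 4661 and 4471 RPM in the control libraries. Here the groups did not overlap, with a log2 fold change of −0.24 (SE 0.08; adjusted p = 0.0935 by edgeR).

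Among the highest members, mir458 and MIRLET7F1 also had groups apart on RPM without a call. mir458 had 65740.1, 57972 and 58471 RPM in the injured libraries, all below its control range. Its log2 fold change was −0.19 (SE 0.05; adjusted p = 0.0732 by edgeR). MIRLET7F1 had 18653, 18404 and 19115 RPM in the injured against 20436, 20894 and 21388 RPM in the control libraries, with a log2 fold change of −0.20 (SE 0.06; adjusted p = 0.0756 by edgeR). These loci were called lower in 4 and 5 of the 17 other fits. For MIR101-1 the injured libraries, with 76614, 60937 and 68475 RPM, lay around the controls, and the log2 fold change of −0.07 had a 95% interval from −0.28 to 0.13. mir153c had a log2 fold change of −0.04 with an interval from −0.40 to 0.32, and mir9-7 one of −0.0036 with an interval from −0.16 to 0.16, which turned to 0.034 with library totals in place of TMM.

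By family, the RPM sums of the let-7, miR-17-92, miR-30 and miR-15 and miR-16 lists lay apart between the groups, which was not tested. For a single sum, such separation of 3 against 3 libraries has a probability of 0.1 without any difference. Which sums lie apart can depend on the scaling, and only RPM was used here. For the let-7 list the gap was narrow, with injured 1 at 75447 RPM and control 2 at 75760 RPM. The pattern within a family was rarely uniform. The 10 loci of the let-7, miR-99, miR-100 and miR-125 group summed to 73178 ± 2066 RPM in the injured and 77827 ± 1812 RPM in the control libraries. Of these 10, 1 was called higher and 9 were not called, with a median log2 fold change of −0.07. The 4 loci of the miR-17-92 paralogs summed to 36698 ± 1116 RPM in the injured and 41963 ± 722 RPM in the control libraries. Of them MIR92A1 was called lower, while MIR25, mir19d and mir93 had log2 fold changes between −0.01 and 0.02. The miR-30 pair summed to 41970 ± 186 RPM in the injured and 36833 ± 1526 RPM in the control libraries, with mir30d called.

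The remaining families included 1 with a call. The 6 loci of the miR-130, miR-301 and miR-454 family summed to 42132 ± 1179 RPM in the injured and 41814 ± 1642 RPM in the control libraries. None of them was called or had an unadjusted p below 0.05, and log2 fold changes ran from −0.15 for mir130b to 0.05 for dre-mir-301a-1. The miR-15 and miR-16 pair summed to 12151 ± 920 RPM in the injured and 10425 ± 525 RPM in the control libraries, with dre-mir-15b called. Neither miR-101 locus and neither miR-181 locus was called. The 6 members on the neuron list had log2 fold changes from −0.13 to −0.0036, with a median of −0.05 and no call, and mir126a of the endothelial list had −0.11 (edgeR adjusted p = 0.403).

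**Figure D5:**
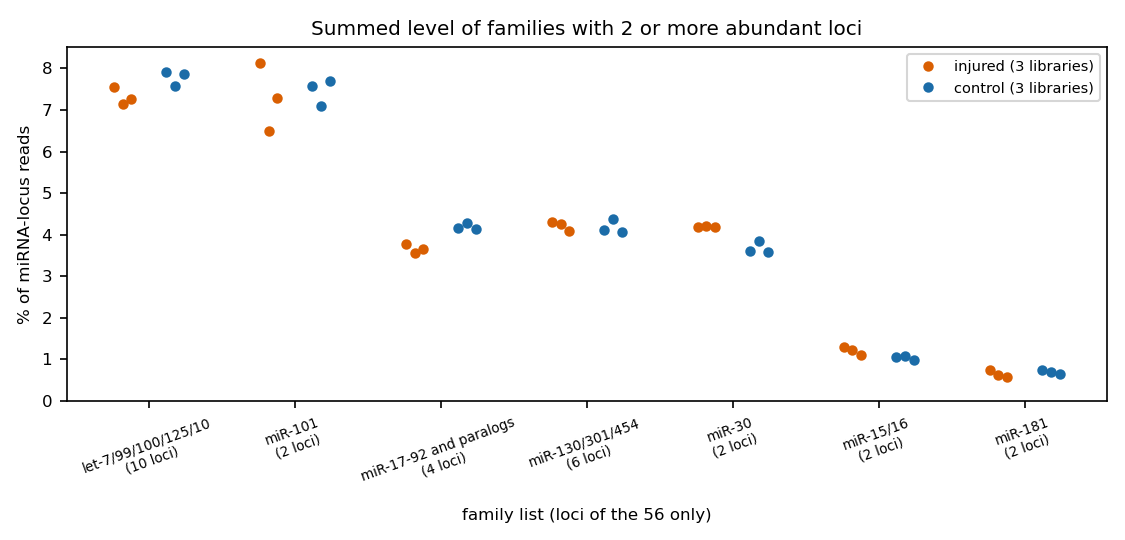
Summed level of the members of each family list with at least 2 members, in percent of miRNA-locus reads, with injured libraries on the left and control libraries on the right of each pair. All injured points lie above the controls for the miR-30 and the miR-15 and miR-16 lists and below them for the miR-17-92 and the let-7 lists, and groups overlap for the miR-101, the miR-130, miR-301 and miR-454 and the miR-181 lists.

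The set of members itself hardly changed upon injury, which does not cover the abundant loci set aside by identifier. In the injured mean 55 of the 56 members still reached 500 RPM. The exception, ENSDARG00000105103, had 563, 467 and 468 RPM in the injured against 640.4, 494 and 582 RPM in the control libraries, with overlapping groups and a log2 fold change of −0.24 (edgeR adjusted p = 0.357). Conversely, 7 loci averaged at least 500 RPM in the injured libraries only. They were MIR183, mir457a, MIR27B, the other MIR142 locus, mir203b, MIR126 and mir7a-1, with control means from 152.2 RPM for MIR183 to 498 RPM for mir7a-1. Of these, MIR27B is also among the loci set aside by identifier. For MIR183 the injured libraries themselves differed most, with 919.8, 144.8 and 2446 RPM, against 194.6, 141.9 and 119.98 RPM in the controls.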

How the data were processed

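The authors prepared small RNA libraries from total RNA of 3 injured and 3 healthy hemispheres and sequenced them on a HiSeq1500. Per the study's methods, adaptors were trimmed with Cutadapt to inserts of mature miRNA length, reads were mapped to GRCz11 with STAR with few mismatches and a mapping quality limit, and HTSeq counted reads at annotated miRNA loci. The submitters' processing notes name BWA, and the labels a total RNA kit with size selection. No version of these tools was given in the sources used here.

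The deposited values are raw counts per locus, with 434 loci and 5 summary lines in each table. Library sizes and tests used locus lines only. Reads outside miRNA loci made up 11.7% of reads in either group, and ambiguous reads 0.0116% in injured and 0.0109% in control libraries. Depth is given with the results; replicates within a group differed by more than sampling noise (chi-square per degree of freedom 42.8 or more), so each counts as 1 sample.

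RPM was computed from the counts for levels, ranks and overlap. Loci with a mean TMM-normalised count above 10 were tested, 188 in all, with edgeR 4.0.16 (limma 3.58.1, R 4.3.3) by the two-sided quasi-likelihood test on a model holding only the group. P-values were adjusted by Benjamini-Hochberg over all 188 loci, and SEs and 95% intervals were derived from the test statistic. The code was tested on simulated counts. Alternatives were RLE, upper-quartile and library-total scaling, other filters, DESeq2 1.42.0, limma-voom, robust fitting, Bonferroni adjustment, the replicate number as a block, thinning to equal depth and each library left out. TMM over the tested loci, unadjusted p and overlap on scaled counts were added after seeing the data.

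The members and the family and marker lists were chosen with earlier results of these data known. Loci named in the text are the 10 highest members, all called members, the 5 largest changes not called, the 3 highest and lowest control CVs, the 5 largest rank shifts, the 3 loci either side of the limit and members on marker lists. Other loci of their families and lists, neighbours, loci set aside by identifier and loci that crossed the limit were named after their values were seen. A symbol was found for 55 of 56 members, and 39 matched RefSeq by name. MIR99A names more than 1 member. Positions of RefSeq genes of GRCz12tu served only to find neighbours, and mature sequences were not used here.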

Additional observations from a re-analysis of the deposited data

How the results depend on the processing

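The count of members with a 95% interval within 2-fold was 55 under each alternative that gives an interval, Bonferroni adjustment giving none. The count of 5 members called changed became 3 with upper-quartile factors, limma-voom or robust fitting, 1 with Bonferroni adjustment, 8 with DESeq2 and 11 at unadjusted p. The 4 called higher became 2 with RLE factors, limma-voom or robust fitting, 1 with upper-quartile factors and 0 with Bonferroni adjustment. The 1 called lower became 3 with RLE factors, with the replicate block and with TMM over the tested loci, 2 with upper-quartile factors and 5 with DESeq2. The members' median log2 fold change of −0.04 became −0.083 with RLE factors, −0.080 with DESeq2, −0.15 with upper-quartile factors and −0.0039 with library totals. Upper-quartile factors moved the median of all tested loci by −0.11. Thinned to equal depth, a median of 4.5 members were called. The cause of these shifts was not tested.

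With 1 library left out, 1 to 8 members were called, 0 to 5 higher and 1 to 3 lower. Calls were 1 without control 1 or control 3, 2 without control 2 or injured 3, 4 without injured 2 and 8 without injured 1. The members' median ranged from −0.07 to −0.02, the share difference from −1.66 to −0.54 points, rho from 0.990 to 0.993 and the number of members from 56 to 58. A limit of 250 RPM gave 73 members and one of 1000 RPM gave 45.

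A sign changed at 5 of 29 named members, all with small changes. mir9-7 had a log2 fold change of 0.034 with library totals and mir193b one of −0.029 with upper-quartile factors. With 1 library left out, changes ranged from −0.15 to 0.0088 for MIR101-1, −0.14 to 0.033 for dre-mir-132-1, −0.22 to 0.11 for mir153c, −0.012 to 0.17 for mir193b and −0.058 to 0.047 for mir9-7.

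Replicate numbers are shared by the groups. Deviations of same-numbered libraries correlated at 0.32, 0.12 and 0.08, above the −0.20 to 0.06 between libraries of different number. Since the labels do not say whether the numbers pair libraries, this was not settled, and the main model held only the group. With the replicate block 6 members were called, 4 of them shared. mir30d was lost, and MIRLET7F1 and dre-mir-724 were added.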
